A study of Caenorhabditis elegans with 2 samples.

Results

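The regions described here are the peaks of tagged LSY-12 on the X chromosome of *Caenorhabditis elegans* L3 larvae that lay away from gene starts. They were the thresholded peaks on X whose summit was more than 500 bp from the start of every protein-coding gene and not within 500 bp of the start of a tRNA, snoRNA, snRNA or miRNA gene. By this rule 224 of the 2095 thresholded peaks were members, out of 414 peaks on X. Of the 190 X peaks left out, 96 lay near a protein-coding start only, 82 near a small RNA start only and 12 near both.

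The peaks come from ChIP-seq, the sequencing of DNA that was immunoprecipitated with a protein, on whole worms of the strain OP568, with the genotype unc-119(tm4063) III; wgIs568. The wgIs568 transgene expresses LSY-12 with a C-terminal GFP-FLAG tag, and the immunoprecipitation used an antibody against GFP. Both samples came from mixed-sex L3 larvae taken 43 h after synchronization by L1 starvation, and the labels number them as biological replicates 3 and 4. They form 1 group of 2 with no second condition, both came from the same transgenic line, and the control library was not analysed here. Sequencing depth is unknown because the deposited lists hold peaks and no read counts. Signal from whole animals of both sexes cannot be assigned to a tissue or a sex.

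LSY-12 belongs to the MYST enzymes, which add acetyl groups to histone tails. In *C. elegans* hermaphrodites, the dosage compensation complex binds both X chromosomes and lowers their expression. It is known to enter X at recruitment elements, which hold a short DNA motif that includes the letters CGCAGGG, and then to spread along the chromosome. Introns and long gaps between genes are where many enhancers of developmental genes lie in this species.

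The letters CGCAGGG were searched on both strands within 100 bp of each summit, because they are the core of the recruitment motif. They were found in 16 of the 224 members, in 19 copies, of which 9 were on the plus and 10 on the minus strand. Some of these copies follow, each on its own strand from 5′ to 3′, with the core in capitals, to show the letters beside the core. They are a selection that overstates how alike the copies were. For W02H3.3, mom-1 and gtr-1, which held 2 copies each, only the copy with atcg before the core is shown. The counts after the list cover all 19 copies. Sequences are from the RefSeq genome of the ce11 build (WBcel235).

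W02H3.3, chrX:11094121-11094137, minus strand: atatcgCGCAGGGagct
mom-1, chrX:6296571-6296587, plus strand: gtatcgCGCAGGGaaga
nspc-17, chrX:14525896-14525912, minus strand: ctatcgCGCAGGGacag
F20B6.9, chrX:4209262-4209278, minus strand: ctatcgCGCAGGGacac
Y41G9A.17, chrX:2997119-2997135, minus strand: ttatcgCGCAGGGagga
F22H10.2, chrX:16682168-16682184, minus strand: acatcgCGCAGGGaaca
gtr-1, chrX:806669-806685, plus strand: ttatcgCGCAGGGgtgt
pks-1, chrX:5429585-5429601, plus strand: atttagCGCAGGGagga
F55G7.5, chrX:11937536-11937552, plus strand: tacaaaCGCAGGGaaga
ins-39, chrX:1345051-1345067, plus strand: cattcgCGCAGGGcagc
col-185, chrX:13514553-13514569, plus strand: ttatcgCGCAGGGatat
nhr-48, chrX:15707634-15707650, minus strand: acacacCGCAGGGggac

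Next to the core, 16 of the 19 copies had G just before it, 13 had C before that G, and 14 had A just after it. Taking each neighbouring letter held by most copies gave the 13 letters TATCGCGCAGGGA. The windows around the summits of 4 members are given whole on the plus strand. Those of W02H3.3 and mom-1 hold 2 copies of the core each, in capitals (CCCTGCG is the core read on the other strand), and K02D3.1 is the member of second-highest signal, which holds none. The window from an intron of kin-20 is shown for its GA-rich stretch, with the letters GAGAGAG and its overlaps in capitals.

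W02H3.3, chrX:11094084-11094284: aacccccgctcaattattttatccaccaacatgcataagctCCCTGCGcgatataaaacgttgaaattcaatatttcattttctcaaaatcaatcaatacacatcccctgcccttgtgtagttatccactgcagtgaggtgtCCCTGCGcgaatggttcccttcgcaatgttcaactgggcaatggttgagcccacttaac
mom-1, chrX:6296506-6296706: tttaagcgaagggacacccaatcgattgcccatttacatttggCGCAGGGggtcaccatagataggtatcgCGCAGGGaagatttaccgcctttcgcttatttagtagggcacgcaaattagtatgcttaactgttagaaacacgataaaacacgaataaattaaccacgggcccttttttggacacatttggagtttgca
K02D3.1, chrX:13700766-13700966: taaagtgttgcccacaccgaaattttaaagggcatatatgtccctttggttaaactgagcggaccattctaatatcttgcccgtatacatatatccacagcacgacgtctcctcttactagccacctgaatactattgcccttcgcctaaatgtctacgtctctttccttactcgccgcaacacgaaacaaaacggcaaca
kin-20, chrX:15275412-15275612: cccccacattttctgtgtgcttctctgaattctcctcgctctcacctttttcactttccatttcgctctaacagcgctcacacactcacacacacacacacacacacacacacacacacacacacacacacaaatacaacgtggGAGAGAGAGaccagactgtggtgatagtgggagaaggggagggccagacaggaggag

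The core was found mostly in the members of highest signal. It was present in 9 of the 15 strongest members (60%, exact 95% interval 32.3 to 83.7%) and in 11 of the 25 strongest (44%, 24.4 to 65.1%). Among the strongest autosomal peaks chosen by the same rule, it was present in 0 of 15 and 0 of 25, which allows a share of up to 21.8% and 13.7% by the exact interval. When the 224 members were ranked by signal and cut into 4 equal groups of 56, the groups held 13, 3, 0 and 0 members with the core, strongest group first. The 16 members with the core were 7.14% of all members, with an exact 95% interval of 4.14 to 11.3%. Of the 764 autosomal peaks away from promoters, 6 held it, which is 0.785% (0.289 to 1.7%). Of the 190 X peaks that the rule left out, 4 held it, which is 2.11% (0.577 to 5.3%). Windows of the same length tiled over all sequence that meets the rule held it in 0.312% of cases on X and in 0.303% on the autosomes. The share was thus higher in the members than in the other peaks and in the sequence around them, and the members' interval did not overlap that of the autosomal peaks away from promoters but did overlap that of the X peaks left out. No test of these differences was made, and all intervals here cover counting error only.

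**Figure D1:**
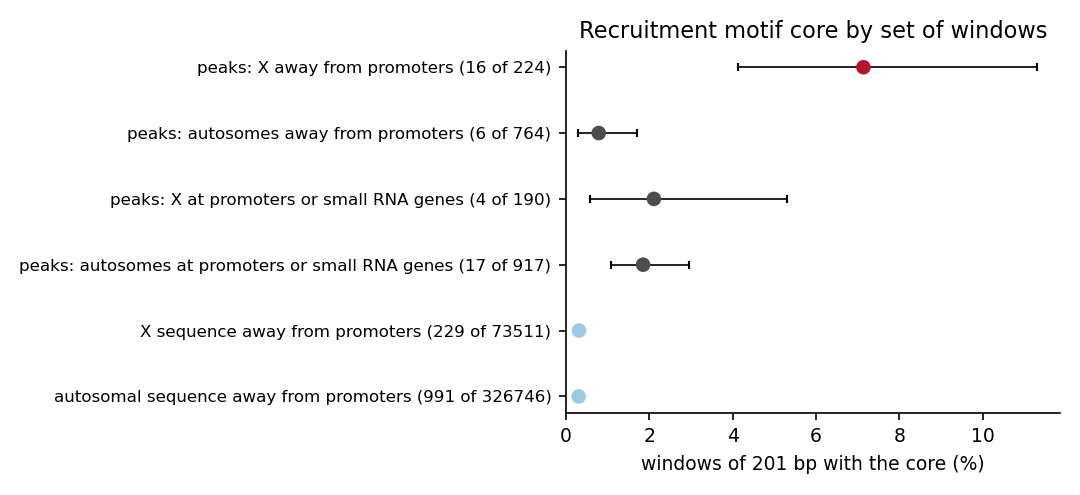
Share of windows (the summit and 100 bp to each side) that hold the core of the recruitment motif (%, x axis) in 4 sets of thresholded peaks and in 2 sets of tiled sequence, with exact 95% intervals as bars. The X peaks away from promoters stand at 7.14%, the other sets between 0.303% and 2.11%.

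Signal is given as relative signal, the authors' value for a region divided by the median value of the 30000 regions in the same replicate's list, and is used only to order and describe regions. The 16 members with the core had a median relative signal of 7.7 in replicate 3 and 9.64 in replicate 4. The other 208 members had medians of 2.61 and 2.64. All 16 overlapped one of the 2095 strongest regions in both replicates, against 62.1% of all members and 70.6% of all thresholded peaks. This count adds nothing to their rank. The 16 were in the 2 strongest of the 4 groups by signal, where 56 and 51 of 56 members overlapped such regions. By their medians, members with the core stood high in both replicates, with exceptions such as col-185 (3.18 and 3.04 in replicates 3 and 4) and nhr-48 (2.1 and 3.69). Of the 16, 12 lay outside protein-coding genes, 3 in introns and 1, that of pks-1, in a coding exon. The median distance of a copy from the summit was 26 bp, and 3 members held 2 copies.

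**Figure D2:**
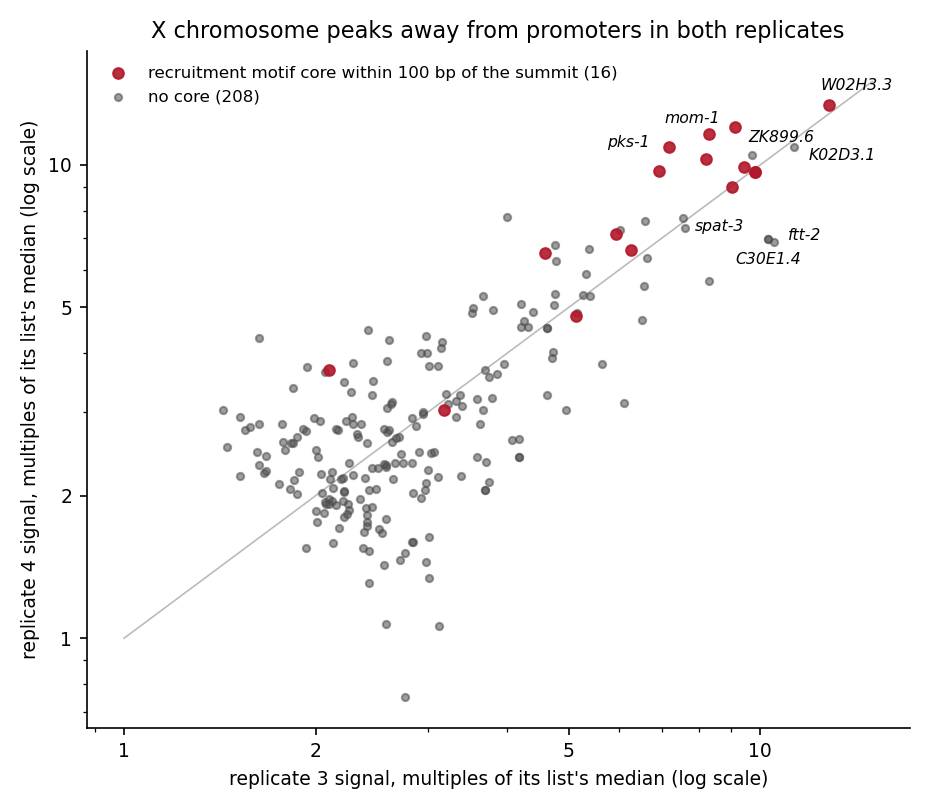
Relative signal of the 224 members in replicate 3 (x axis) and replicate 4 (y axis), both in multiples of the list's median on log scales, with equality as a grey line. The 16 members with the recruitment motif core (red) lie mostly at the upper right, and strong members without it include K02D3.1, ZK899.6, C30E1.4 and ftt-2.

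The core alone occurred 301 times on X, or 17 times per Mb, and 1329 times on the autosomes, or 16.1 per Mb. On X 25 of these copies lay in a thresholded peak (8.31%), against 32 on the autosomes (2.41%). The 13 letters occurred without mismatch 8 times on X and 0 times on the autosomes. All 8 lay in thresholded peaks, 7 of them in members. The eighth lay in the X peak assigned to xol-1, the switch gene of sex determination, which the rule left out for a tRNA gene that starts 351 bp from this copy. With up to 1 mismatch there were 18 copies on X, of which 13 lay in thresholded peaks and 11 in members, and 9 copies on the autosomes, of which 0 lay in thresholded peaks. The 5 remaining X copies overlapped no candidate region of either replicate, so copies of these letters also lay outside called regions. The 13 letters were read from the members themselves, so neither their count in the members nor their excess on X is independent evidence. Outside the members there was 1 exact copy on X, against 0 on the autosomes, and with up to 1 mismatch there were 7 copies on X, against 9 on the autosomes. These counts are not per Mb, and the autosomes are much longer together than X. Sequence that meets the rule came to 14.8 Mb on X and 65.7 Mb on the autosomes. A match is a description and not a shown binding site of any factor.

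The strongest member lay between W04G3.11 and W02H3.3 at chrX:11094023-11094347, 4002 bp from the start of W02H3.3, with relative signals of 12.8 and 13.4 in replicates 3 and 4. The member assigned to K02D3.1, 6041 bp upstream of its start, had 11.3 and 10.9 and held no core. An intron of mom-1, which encodes the Porcupine-type acyltransferase needed for Wnt secretion, held a member with 9.13 and 12. Each of these members was among the strongest regions in both replicates. The member assigned to ZK899.6 had 9.72 and 10.5, and nspc-17, of a family of nematode-specific peptides, had 9.42 and 9.92. F20B6.9 had 8.31 and 11.6, and Y41G9A.17 had 9.8 and 9.64 in an intron. C30E1.4 had 10.3 and 6.97 and held no core, and F22H10.2 had 8.22 and 10.3. The W02H3.3 member was above the other 8 in both replicates. Among those 8 the order differed between the replicates, as for C30E1.4, which was above mom-1 in replicate 3 and below it in replicate 4. The next 6 members were those of gtr-1 (9.01 ± 0.0385, mean ± SD, n = 2), ftt-2 (8.68 ± 2.55), pks-1 (9.03 ± 2.61), F55G7.5 (8.32 ± 1.97), F19H6.5 (7.48 ± 0.19) and spat-3 (7.63 ± 0.115). ftt-2 encodes a 14-3-3 adaptor protein, pks-1 a polyketide synthase and spat-3 a RING-finger protein related to Polycomb proteins. The pks-1 member lay in a coding exon and was the farthest of all from a start, at 15227 bp. The spat-3 window was largely a GT repeat, and 44.7% of its 32-base words occurred more than once in the genome.

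Across all members, relative signal had a median of 2.69 in replicate 3 (quartiles 2.22 and 3.82) and 2.75 in replicate 4 (2.14 and 4). The autosomal peaks away from promoters had medians of 2.67 and 2.78, and the X peaks left out by the rule had 2.96 and 3.2. The medians of the members were thus close to those of their autosomal counterparts and below those of X peaks near starts. Of the 224 members, 139 overlapped one of the 2095 strongest regions in both replicates, which is 62.1% (55.3 to 68.4%), against 66% of the autosomal peaks away from promoters. Over all thresholded peaks the share was 70.6%. This share was 56, 51, 29 and 3 of 56 in the 4 groups from strongest to weakest signal, so the weakest group was among the strongest regions of at most 1 replicate in all but 3 cases. A deposited q-value of 0.01 or less was given to 50% of the members (43.3 to 56.7%), against 50.1% of the autosomal peaks away from promoters and 58.3% of all peaks. Replicate 4 was higher than replicate 3 in 104 of the 224 members, and 7 members differed by more than 2-fold.

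The members that differed most between replicates were of low or middling signal, except that of mdl-1, which ranked 27 of 224 by signal. The member of fkh-9, a forkhead factor, had 2.76 in replicate 3 and 0.751 in replicate 4, a log2 difference of -1.88 (replicate 4 over replicate 3). A kin-20 member had 3.13 and 1.06 (-1.56), C34E11.2 had 2.58 and 1.07 (-1.27), nhr-91 had 3.02 and 1.34 (-1.17) and cab-1 had 2.98 and 1.45 (-1.03). These 5 were higher in replicate 3. The member of osm-11, which encodes a secreted Notch co-ligand, had 1.63 and 4.3 (1.40), and a sma-9 member had 1.43 and 3.04 (1.09). mdl-1, a Mad-like factor, had 4 and 7.75 (0.96), scd-1 had 1.52 and 2.93 (0.95) and F46G10.2 had 1.94 and 3.74 (0.94). Of these 10, only the mdl-1 member exceeded 5 in a replicate.

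Most members lay outside protein-coding genes. Between genes there were 120 of 224 (53.6%, 46.8 to 60.2%), against 45.4% of the autosomal peaks away from promoters, while 40.4% of the X sequence that meets the rule is of this kind. Introns held 65 members (29%, 23.2 to 35.4%), against 33.9% on the autosomes and 32.1% of the X sequence. Coding exons held 13 (5.8%, 3.13 to 9.72%), against 9.03% on the autosomes and 19.6% of the X sequence. The members were therefore fewer in coding exons than the sequence available there, while the intron share of the sequence lay within the members' interval. Non-coding genes other than the 4 small RNA classes held 19 members (8.48%, 5.18 to 12.9%), against 5.24% on the autosomes and 1.4% of the X sequence. Untranslated exons held 6 members and pseudogenes held 1. Of the 25 strongest members, 19 lay between genes, 3 in non-coding genes, 2 in introns and 1 in a coding exon.

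**Figure D3:**
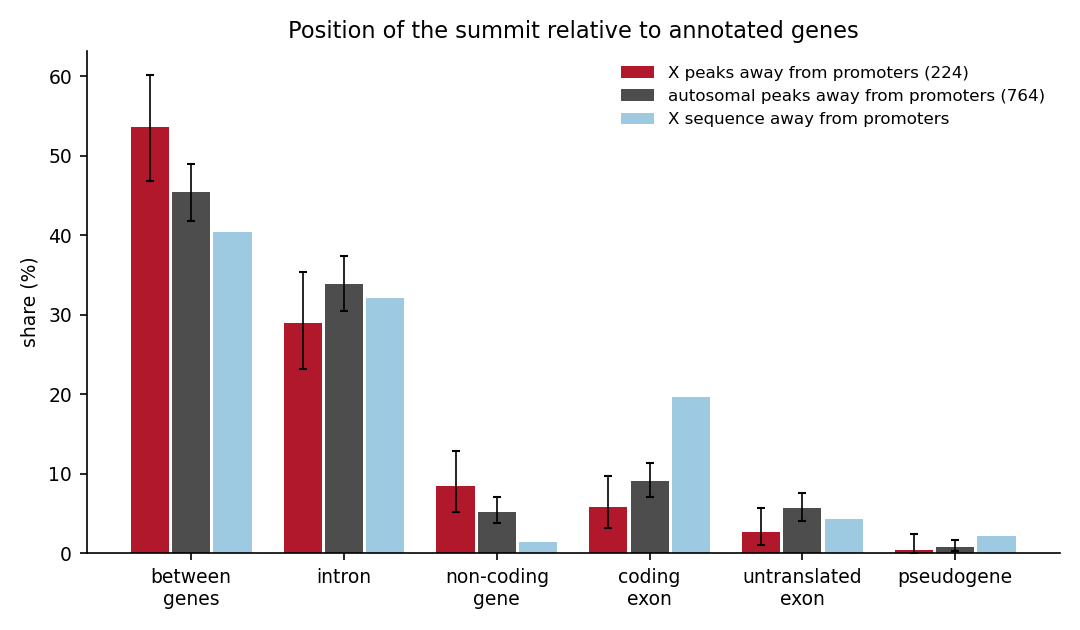
Share (%, y axis) of the X peaks away from promoters (red), of the autosomal peaks away from promoters (dark grey) and of the X sequence that meets the rule (blue) in 6 position classes, with exact 95% intervals for the peaks. Between-gene positions lead in all 3, at 53.6% of the X peaks, and coding exons hold 5.8% of the X peaks and 19.6% of the sequence.

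The 140 members outside protein-coding genes lay in long gaps. Their gaps had a median length of 7286 bp (555 to 27973 bp), while the 2379 gaps between X protein-coding genes had a median of 1786 bp. A long gap holds more sequence that meets the rule, and no correction was made for this. The flanking genes pointed the same way at 77 of these members, away from each other at 34 and toward each other at 29. Relative to the nearest start, 94 lay upstream and 46 downstream.

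The 65 intron members lay in 44 genes, and some introns held several. Over the members, the intron around the summit had a median length of 2818 bp (177 to 14198 bp), and 50 members lay in introns longer than 1000 bp. The introns of X genes as a whole had a median of 58 bp, and 5.62% were longer than 1000 bp. Longer introns also hold more sequence that meets the rule. First introns held 26 members and first or second introns 35. Of the 65, 13 lay within 500 bp of the start of another annotated transcript of a protein-coding gene, so these are distal to the most 5′ start only. Genes with an intron member had a median length of 7.96 kb, against 2.55 kb for all 2731 X protein-coding genes. The longest such introns were those of mob-2 (14198 bp, relative signals of 2.56 and 2.77) and daf-12 (13584 bp, 2.93 and 1.98).

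The median distance from a member to the nearest protein-coding start was 2251 bp (505 to 15227 bp), against 2081 bp for the autosomal peaks away from promoters. There were 43 members at 500 to 1000 bp, 55 at 1000 to 2000 bp, 85 at 2000 to 5000 bp and 41 beyond 5000 bp, of which 5 lay beyond 10000 bp. Most members, 126 of 224, thus lay more than 2000 bp from a start. Just inside the limit were the members of ptrn-1, a microtubule minus-end protein, at 505 bp (2.23 and 2.88), yap-1 at 506 bp (3.96 and 3.8) and ftt-2 at 518 bp (10.5 and 6.87). Just outside it were peaks at 500 bp from latd-1 (2.39 and 2.06), 482 bp from M163.11 (2.32 and 1.42) and 480 bp from C04C11.25 (3.33 and 2.76). Annotated non-coding genes that the rule does not count, had their start within 500 bp of 52 members, and in 51 cases these were of class ncRNA.

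**Figure D4:**
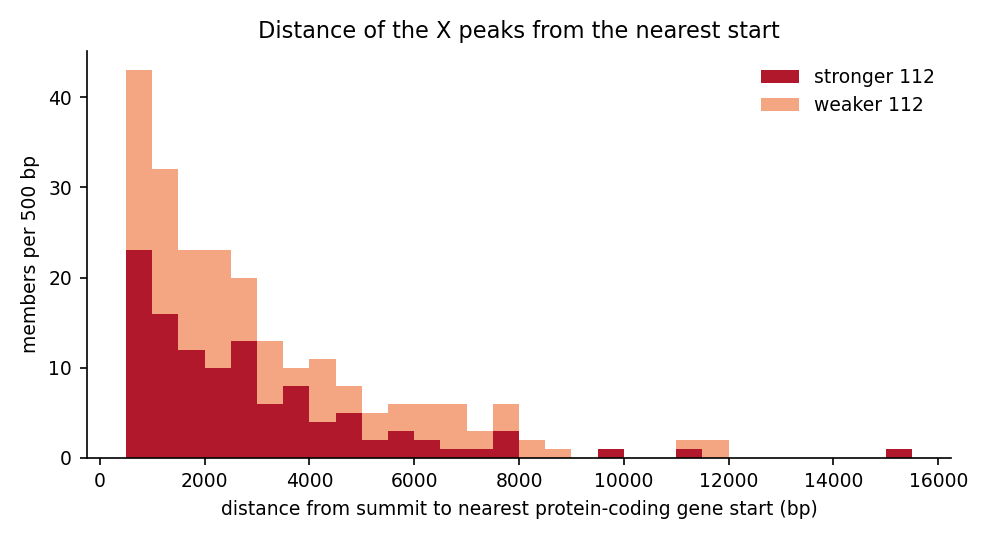
Number of members (y axis, per 500 bp) by distance from the summit to the nearest protein-coding gene start (x axis, bp), split into the stronger 50% of the members by signal (dark red) and the weaker 50% (light). Both parts fall off with distance, and 41 members lie beyond 5000 bp.

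On X, members made up 54.1% of all thresholded peaks (49.2 to 59%), against 45.4% (43 to 47.9%) on the autosomes. Per Mb of sequence that meets the rule there were 15.2 members on X, against 11.6 on the autosomes together. Chromosome III was higher, at 16.5, and chromosome V lowest, at 7.86, so the density on X lay within the range of the single autosomes. Set against the 4120 pooled candidate regions on X that meet the rule, the members came to 5.44% (4.76 to 6.17%), against 4.12% (3.84 to 4.42%) on the autosomes. Along X the members were spread unevenly, with 5 to 25 per 1 Mb bin and a median of 13. Neighbouring members were a median of 33.2 kb apart, and 64 of the 224 lay within 2000 bp of another.

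Each member was assigned to the protein-coding gene that holds it or, outside such genes, to the nearest start. This gave 163 genes, or 5.97% of the X protein-coding genes, and 37 of them had 2 or more members.

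sma-9, which encodes the Schnurri-type zinc finger protein of the body size TGF-beta pathway, had 6 members, with means of both replicates from 1.74 to 4.62. The strongest lay 2996 bp upstream of its start, with relative signals of 6.1 and 3.14 in replicates 3 and 4. Of its other members, 1 lay upstream, 2 in a first intron and 2 in coding exons. kin-20, which encodes a casein kinase 1 of the developmental timing pathway, had 5 members, 4 of them in introns. The strongest had 3.53 and 4.98 and lay 3485 bp into the gene. Its summit was 490 bp from another annotated protein-coding transcript start and 67 bp from the start of an ncRNA gene. The intron members 2252 and 916 bp into the gene lay 22 and 215 bp from ncRNA starts, and the one at 6091 bp lay 2539 bp from one. Both genes thus had members spread over and around the gene, none of them among the 15 strongest. C30E1.4, ZK470.2, yap-1, ivns-1 and scd-1 had 4 members each, and ftt-2 had 3. The 4 members of yap-1, the Yes-associated protein homologue, all lay upstream, with means from 2.37 to 3.88. Of the 4 at scd-1, 3 lay in introns, with means from 2.19 to 3.5. unk-1, mxl-3, nhr-91, nhr-40, abts-4 and lin-14 also had 3. Chains of members with at most 2000 bp between neighbours reached 6 in the gap between phf-31 and yap-1, from chrX:10684492-10691641.

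Neighbouring members were not always separate regions in the replicates. In total 10 members shared a replicate region with another member and so were given the same relative signal. At C30E1.4 the members of rank 8 and 165 both took 10.3 and 6.97, and at Y41G9A.17 the members of rank 7 and 89 both took 9.8 and 9.64. At the motif copy in the weaker Y41G9A.17 member, the overlapping replicate regions had 3.62 and 2.46. Without these 10 there were 214 members, of which 14 held the core.

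**Figure D5:**
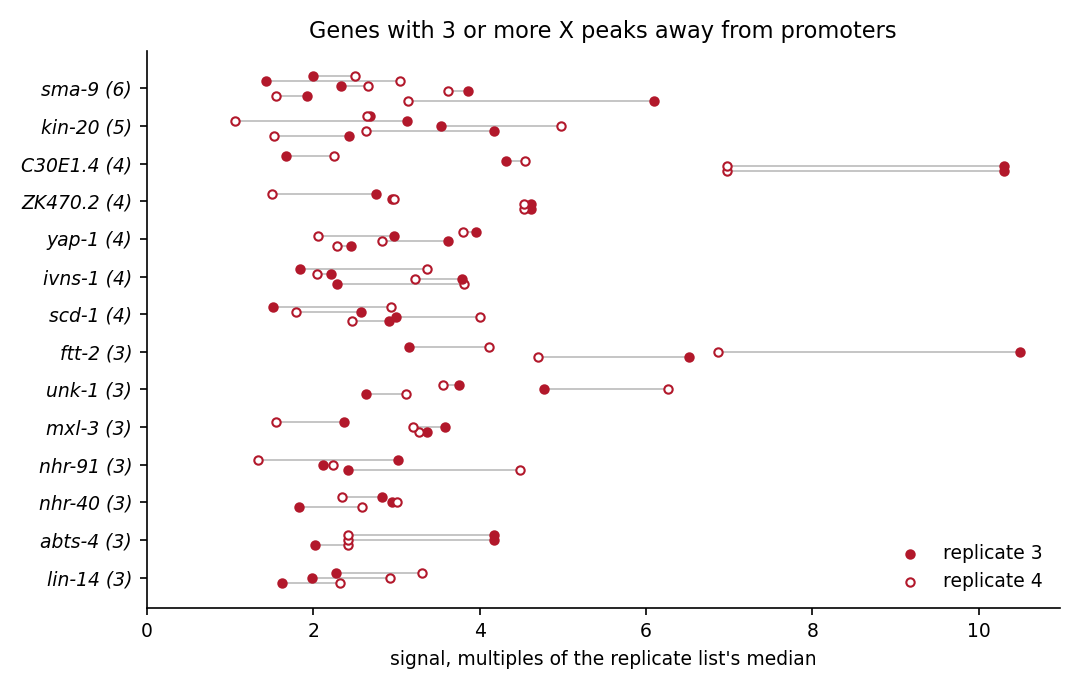
Relative signal (x axis, multiples of the list's median) of each member at the 14 genes with 3 or more members, with replicate 3 filled and replicate 4 open and a line joining the replicates of 1 member. Members within a gene run from the most upstream (bottom) to the most downstream (top), sma-9 has 6 and kin-20 has 5, and coinciding lines at C30E1.4, ZK470.2 and abts-4 are members that share a replicate region.

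The developmental timing (heterochronic) genes set the order of larval cell fates. All 5 genes of this list that lie on X had a member, with 12 members in all, against 5.97% of X protein-coding genes. This comparison was not corrected for the length of genes or of the gaps beside them. The 5 genes were 31 kb (daf-12), 20.3 kb (lin-14), 9.16 kb (kin-20), 5.61 kb (hbl-1) and 3.42 kb (ain-1) long. The median of all X protein-coding genes was 2.55 kb, and a longer gene holds more sequence that meets the rule. lin-14, a nuclear protein repressed by the lin-4 microRNA, had 3 intron members, of which the strongest had 2.27 and 3.31. daf-12, a steroid hormone receptor, had 2 in first introns, with 5.33 and 5.89 at the stronger and 2.93 and 1.98 at the weaker. hbl-1, a Hunchback-like factor, had 1 member 1056 bp upstream with 2.54 and 1.67. ain-1, a GW182-type partner of microRNAs, had 1 member 941 bp upstream with 6.58 and 7.62. Earlier results of these data had already shown peaks at timing genes, so the count is no independent evidence.

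Nuclear hormone receptor genes had 15 members at 8 of the 23 on X, of which nhr-14 had the strongest (3.8 and 4.94 at 1406 bp upstream). nhr-91 had 3 members in intron 3, the strongest with 2.42 and 4.48. Of the epidermal list 2 of 3 X genes had a member. These were elt-3, an epidermal GATA factor, with 3.01 and 1.64 at its stronger member, and peb-1, a DNA-binding protein of the pharynx, with 2.35 and 1.97. In the gut list 1 of 4 X genes had a member. This was elt-2, the main intestinal GATA factor, with 1 member 545 bp upstream with 2.72 and 2.45. Of 8 chromatin genes 2 had a member, the bromodomain gene bet-2 (6.64 and 6.35) and the histone deacetylase gene hda-4 (4.72 and 4.02). Other lists with a single member on X gave ins-39, an insulin-like peptide (6.26 and 6.61), nlp-76, a neuropeptide (3.71 and 2.36), and col-185, a cuticle collagen. These were 1 of 2, 1 of 19 and 1 of 27 X genes of their lists, and 5.97% of all X protein-coding genes had a member.

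Other families on X had no member. None was assigned to the 21 genes of neuronal channels, synapse and adhesion, the 9 muscle genes, the 18 homeobox genes of the ceh class, the 13 FMRFamide-like peptide genes, the 10 two-pore potassium channel genes or the 5 vulval signalling genes. The 6 X genes of the dosage compensation and X counting list, xol-1 among them, also had none by this assignment, and the peak nearest to xol-1 was left out by the tRNA criterion. Of 27 cuticle collagen genes 1 had a member. With 5.97% of X genes assigned a member, lists of this size are too small to read an absence from.

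The members differed in sequence from the chromosome around them in further ways. Their windows had a median GC content of 45.3%, against 44.3% at the autosomal peaks away from promoters and 34.3% in X sequence that meets the rule. Repeated sequence was rare in them. In 5 of 224 windows (2.23%, 0.729 to 5.13%) more than 10% of the 32-base words occurred more than once in the genome. The share was 5.1% (3.65 to 6.91%) at the autosomal peaks away from promoters, an interval that overlapped that of the members. It was 41.6% at the X peaks left out by the rule and 9.82% in the X sequence. The letters GAGAGAG were in 46 members (20.5%, 15.4 to 26.4%), against 24.5% of the autosomal peaks and 2.3% of the X sequence. The E-box letters CACGTG were in 31 members (13.8%, 9.6 to 19.1%), against 14% and 2.57%. Over all peaks, both were thus as common in autosomal peaks as in the members. Neither was concentrated in the strongest members: GAGAGAG was in 1 of the 15 strongest and CACGTG in 0. The strongest peaks of the 2 sets differed, however. GAGAGAG was in 4 of the 25 strongest members and in 11 of the 25 strongest autosomal peaks away from promoters. CACGTG was in 0 and 6 of them. The GATA factor letters TGATAA were in 12.5% (8.47 to 17.6%), against 16.9% of the autosomal peaks and 18.9% of the X sequence. AGTGCA was in 11.6%, against 9.42% and 8.3%. The AP-1 letters TGAGTCA were in 3.12%, against 1.57% and 2.17%. These shares were not corrected for GC content.

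Of the 6-letter words in at least 10% of the members, those with the highest ratio of member windows to windows 600 bp to each side were CGCCGC (12.9% of members, 1.12% of flanks), CACGCG (12.1% and 1.12%), CCTGCG (12.9% and 1.34%), GAGGCA (14.3% and 1.79%), AGCGCG (10.3% and 1.34%) and CCCCCC (17% and 2.23%). CCTGCG overlaps the core read on the other strand. In the autosomal peaks CGCCGC was about as common, at 11.8%, while CCTGCG stood at 5.37% and CCCCCC at 9.03%. The words were ranked on these members, so their ratios are given as a description only.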

How the data were processed

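ChIP-seq peak lists of 2 samples of 1 group were used. Candidate regions were called by the authors against a control, for each replicate and for both pooled, per the deposited descriptions. Peaks that passed an irreproducible discovery rate threshold form the list used to find members. Aligner, caller and depth: not given in the sources used here. No scale is stated for the deposited signal, so values were divided by the median of their own list. The deposited −log10 q-value was used to count members at a q-value of 0.01 or less. The deposited summit offset, another column, set summit positions. The summit lay at the region's middle for 203 members (90.6%), so most summits are midpoints. Most members, 202, had the same width of 410 bp, and 14 of the 15 strongest were narrower.

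Positions are in ce11 and count from 1. Gene models were those of Ensembl release 115 for WBcel235. Members were found by the distance rule, then classed, assigned to genes and joined to the strongest replicate region that overlapped them by at least 1 bp. The steps ran in Python 3.11.15 with numpy 2.4.6, pandas 2.3.3, scipy 1.17.1 and matplotlib 3.10.9. The rule was tested on simulated data, a made-up annotation, where 13 of 13 known answers were recovered. Shares have exact Clopper-Pearson 95% intervals, which cover counting error only. With 1 group and 2 replicates no test between conditions was possible, and no p-value was computed.

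The members, the 16 gene lists and the motifs were chosen with earlier results of these data known. Genes were named by these rules: the 15 strongest members, the 8 genes with most members, the 3 peaks to each side of the distance limit, up to 3 genes of each list, the 5 members with the highest and the 5 with the lowest ratio of replicates, and the 6 leading 6-letter words. Genes named with a motif copy, and those with 3 members, were chosen after their values were seen. Outside these rules, hbl-1 was named as a further gene of the heterochronic list, mob-2 for its intron length and phf-31 for its chain of members. Member genes without a symbol in Ensembl were looked up in RefSeq.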

Additional observations from a re-analysis of the deposited data

How the results depend on the processing

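No paired analysis was possible because there is 1 group and no second condition to pair. Of 61 values recomputed under other choices, 54 stayed within the interval, the replicate SD or 1.5 times of the reported value, and 7 did not. Keeping only thresholded peaks of above-median signal left 99 members, with 96% among the strongest regions of both replicates, a median relative signal of 4.26 and the core in 15.2%, in a list that is itself selected on signal. An overlap of at least 50% of both regions gave a median relative signal of 2.62, against 2.66 as reported, and 9 members then had no value. Using 1 replicate alone gave 205 to 242 members, an intron share of 25.9 to 32.2%, a share among the strongest regions of both of 61.2 to 68.3%, a median relative signal of 2.61 to 2.83, the core in 7.44 to 8.29% and in 8 to 9 of the 15 strongest, and 4 to 5 heterochronic genes. Across the choices tried after the data were seen, which cover the core and the heterochronic genes, the core was in 5.8 to 15.2% of members and in 8 to 10 of the 15 strongest. Unknown depth limits every single region, whose error is known only from 2 replicates.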

Other observations

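Letters close to the recruitment motif core were also frequent in the strongest members. CGAAGGG, which differs from the core at a single letter, was in 10 of the 25 strongest members, against 1 of the 25 strongest autosomal peaks away from promoters. Over all members it was in 16 of 224 (7.14%, 4.14 to 11.3%). It was in 1.96% of the autosomal peaks, 2.63% of the X peaks left out by the rule and 0.619% of the X sequence. Both words were together in 6 members, all among the 15 strongest. At least 1 of the words was in 11 of the 15 strongest members and in 26 of 224. K02D3.1 and ZK899.6, which lack the core, held CGAAGGG, as did fbxb-58 (8.31 and 5.69 in replicates 3 and 4) and F43E12.1 (6.02 and 7.28). Of the 15 strongest, those of C30E1.4, ftt-2, F19H6.5 and spat-3 held neither. The summits at C30E1.4, ftt-2 and spat-3 lay 94, 52 and 0 bp from the start of an annotated ncRNA gene, a class the rule does not count. For F19H6.5 the nearest such start was 6586 bp away. Leaving out every member within 500 bp of any annotated non-coding gene start kept 172 members, and 16 of them held the core. The 16 members with CGAAGGG had median relative signals of 7.75 and 8.46 in replicates 3 and 4, and the 15 autosomal peaks with it 2.7 and 2.5. These medians compare unlike sets, since 6 of the 16 members also held the core and 0 of the autosomal peaks did. Ordered by signal, the 10 members with CGAAGGG alone ran from K02D3.1 (11.3 and 10.9) to nhr-71 (1.45 and 2.54). The word was picked after the windows had been read, so these are descriptions with no test.

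Of the 9 autosomal copies of the 13 letters with up to 1 mismatch, 1 lay in an intron of her-1, the sex determination gene that the proteins recruiting the dosage compensation complex are known to repress in hermaphrodites. No candidate region of either replicate overlapped it. Of the other autosomal copies, that in eif-2A overlapped weak regions of both replicates (1.1 and 1.41) and that in acds-10 a region of replicate 4 only (0.822).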
